A study of Mus musculus with 40 samples.

Results

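Genes that red cell precursors use for their regulation, for heme synthesis and for the red cell membrane were followed in the liver of mouse fetuses whose mothers ate 4 different diets. The members are 33 named genes, chosen by symbol: 6 transcription factors and cofactors, 2 receptors, 7 heme synthesis enzymes, 2 mitochondrial carriers, 5 membrane skeleton proteins, 5 membrane proteins and blood group antigens, and 6 further red cell proteins. Of these, 32 matched 1 of the 20593 genes in the table. The alpha-hemoglobin stabilizing protein Ahsp was not analysed here. All 32 passed the filter on low values that left 15377 genes for the tests.

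The fetuses were C57BL/6 at gestational day 18.5, and their dams ate the diet for 13 weeks before mating and through pregnancy. The control diet held 10% of its energy as fat with 2 mg/kg folic acid (CD) or with 10 mg/kg (CDF). The western diet, used as a model of gestational diabetes, held 45% of its energy as fat with 2 mg/kg (WD) or 10 mg/kg (WDF) folic acid. Each diet had 5 male (M) and 5 female (F) fetal livers, 1 RNA library each, which makes 8 groups and 40 libraries. Litters and dams are not named in the labels, so littermates may be among the libraries, and the p-values measure the spread between these libraries.

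The fetal liver is the main site of red cell formation in late gestation. There, erythropoietin acts through its receptor on precursors, GATA1 with its partners and KLF1 switch on red cell genes, and maturing erythroblasts import iron, make heme and build the spectrin-based skeleton under their membrane. Heme synthesis starts and ends in the mitochondrion, with ALAS2 as its first and FECH as its last enzyme in red cells.

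Values are normalized read counts, that is read counts divided by a factor per library, and their sum per library ran from 15001967 to 27817171 in the 38 libraries used. CD_F replicate 4 and CDF_F replicate 5 were left out of every comparison: their albumin (Alb) values were 7708 and 5278 against 641907 to 1496610 in the other libraries, and their summed lung markers were 153010 and 98840, so that both went against their liver label. A further library, CDF_F replicate 4, stood apart in another way. In it, genes in the fifth with the shortest transcripts exceeded the fifth with the longest by 1.68 on the log2 scale, whereas this gap lay between -0.76 and 0.69 in the other 37. It also had the largest total. Its surfactant protein C (Sftpc) value was 24797 and that of CD_F replicate 5 was 30176, against at most 5978 in the other 36 libraries. CD_M replicate 4 had the next largest gap, 0.69, and the fifth of genes richest in G and C exceeded the poorest there by 0.88. Differences of named members that moved by over 1.5 times when CDF_F replicate 4 was left out are given both ways, and no printed difference of a member moved that far without CD_F replicate 5.

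The members differ in what lies directly upstream of them, and 26 of the 32 have a promoter entry (32 entries, since some have several starts). In the 250 bases before the start, the GATA motif (AGATAA, with A or T allowed as its first base and A or G as its last, both strands) stood in 16 of the 32 member entries and in 26.5% of all 32851 entries. The KLF1 motif CCNCNCCC, on either strand, stood in 18 of 32 and in 45.9% of all, and the NFE2 motif TGANTCA in 2 of 32 and in 6.75% of all. Matches may overlap one another. The 5 promoters shown are examples, and the kind with KLF1 matches alone, such as that of Gata1, is not among them. GATA and KLF1 matches stand in a receptor gene and in a transcription factor gene, and GATA and NFE2 matches in another gene. Overlapping GATA matches stand in a heme enzyme gene, and a further heme enzyme gene has no match. The 5 are RefSeq sequences of GRCm38.p6, given as the bases before the start, 5′ to 3′ in the direction of transcription. Motif matches are in capitals. Their positions are chr9:21963577-21963826 (minus strand) for Epor, chr2:28621983-28622232 (minus strand) for Gfi1b, chr17:36869324-36869573 (plus strand) for Trim10, chr16:58669958-58670207 (plus strand) for Cpox and chr4:116994414-116994663 (minus strand) for Urod.
Epor: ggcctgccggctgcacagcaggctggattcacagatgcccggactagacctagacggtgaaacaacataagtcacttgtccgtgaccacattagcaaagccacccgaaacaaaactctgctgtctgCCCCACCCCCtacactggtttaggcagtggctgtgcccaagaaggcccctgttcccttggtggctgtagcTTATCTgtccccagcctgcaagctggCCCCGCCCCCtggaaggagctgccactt
Gfi1b: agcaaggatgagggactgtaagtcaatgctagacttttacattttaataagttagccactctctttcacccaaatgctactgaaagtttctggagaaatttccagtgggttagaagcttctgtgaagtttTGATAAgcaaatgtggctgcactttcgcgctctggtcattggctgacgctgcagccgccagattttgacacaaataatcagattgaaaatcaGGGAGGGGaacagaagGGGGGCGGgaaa
Trim10: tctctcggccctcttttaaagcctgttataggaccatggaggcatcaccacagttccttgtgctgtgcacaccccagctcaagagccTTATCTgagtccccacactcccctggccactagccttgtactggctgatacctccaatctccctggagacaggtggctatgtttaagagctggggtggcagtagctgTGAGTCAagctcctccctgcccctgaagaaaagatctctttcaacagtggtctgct
Cpox: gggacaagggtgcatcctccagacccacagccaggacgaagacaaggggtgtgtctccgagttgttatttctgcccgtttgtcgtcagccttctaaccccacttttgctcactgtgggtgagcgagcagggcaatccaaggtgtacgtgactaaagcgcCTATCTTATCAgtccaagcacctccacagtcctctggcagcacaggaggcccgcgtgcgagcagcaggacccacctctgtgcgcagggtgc
Urod: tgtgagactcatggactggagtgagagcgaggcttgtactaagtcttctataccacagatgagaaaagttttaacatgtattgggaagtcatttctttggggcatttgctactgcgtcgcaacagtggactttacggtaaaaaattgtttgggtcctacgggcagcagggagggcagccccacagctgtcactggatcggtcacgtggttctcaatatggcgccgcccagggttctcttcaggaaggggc
A match is a string of letters and was not tested as a binding site here.

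Per kilobase of transcript, the levels of the members spanned a wide range in the 38 livers. Carbonic anhydrase 2 (Car2) had the highest median, 12221 normalized counts per kilobase, followed by the erythroid 5-aminolevulinate synthase Alas2 with 6699, the anion exchanger band 3 (Slc4a1) with 5792 and the mitochondrial iron importer mitoferrin 1 (Slc25a37) with 4006. The transcription factors were lower: Nfe2 had a median of 1337 per kilobase, Klf1 of 1178, Gata1 of 684, Tal1 of 599, the GATA cofactor Zfpm1 of 490.1 and the repressor Gfi1b of 278. The ubiquitin ligase Trim58 was lowest with 67.3. Of neighbours in this order, Gfi1b and Trim58 alone had means further apart than the sum of their SDs over all 38 libraries.

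Members also differed in how steady they were. The SD between libraries of a group, on the log2 scale and pooled over the 8 groups, was smallest for the Rh-associated glycoprotein Rhag (0.20) and Fech (0.22) and largest for the Kell antigen gene Kel (0.71), Alas2 (0.59) and Trim58 (0.58). Its median over the members was 0.32, against 0.38 over all tested genes. In several libraries the members stood high or low together. All 32 members were above their own median in WD_M replicate 3, WDF_M replicate 5 and WDF_F replicate 2, and none was in CD_M replicate 1 and CD_F replicate 2. The members' median deviation in a library ran from -0.41 in CD_F replicate 5 to 0.51 in WD_M replicate 2, with an SD between libraries of a group of 0.20. In whole liver, fewer red cell precursors and less of a transcript per precursor cannot be told apart.

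**Figure D1:**
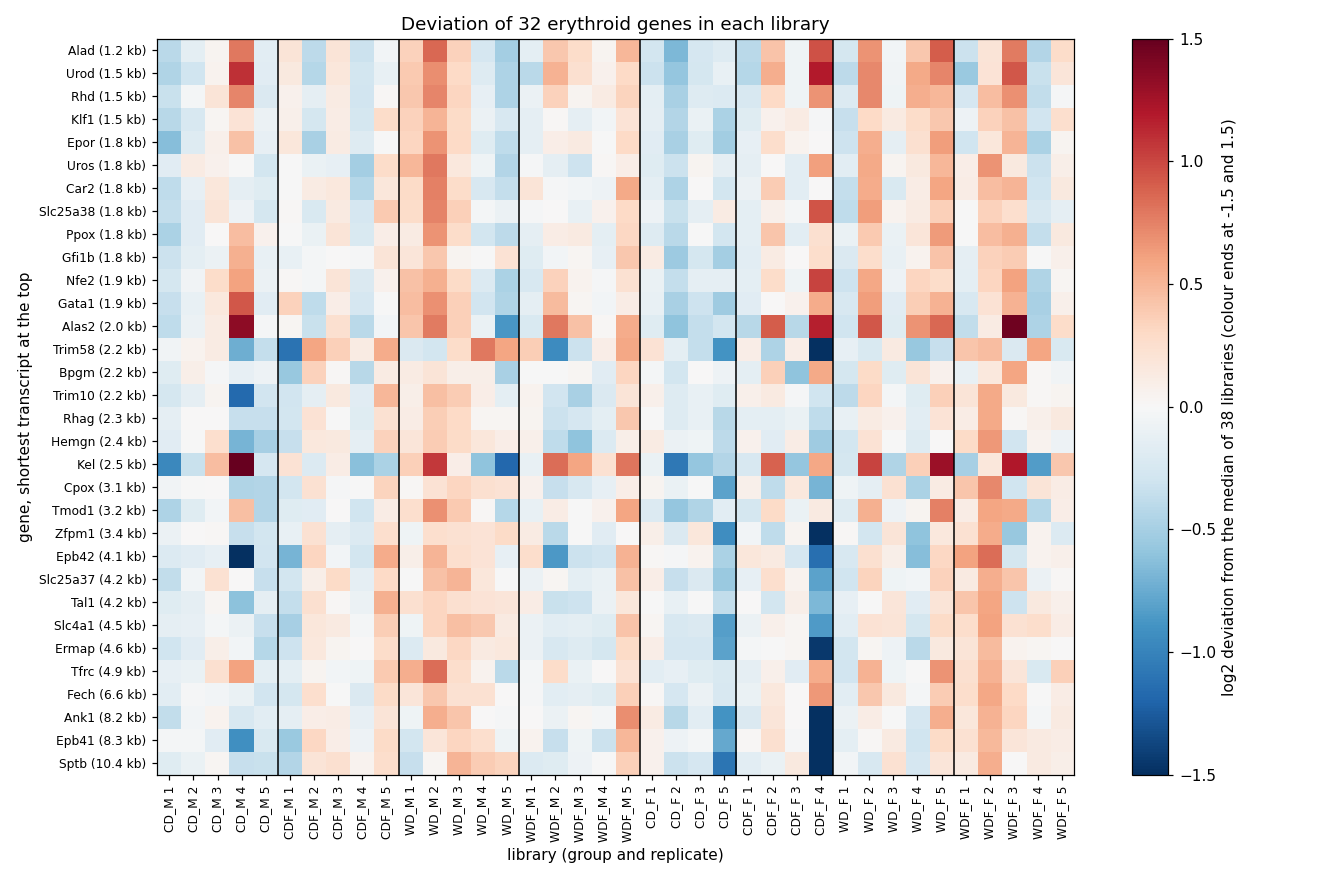
Log2 deviation of each of 32 genes (rows, shortest transcript at the top, length in kilobases) from its median over 38 libraries, by library (columns, grouped by diet and sex). The columns WDF_F 2 and WDF_M 5 are of 1 colour, with all members above their median. CDF_F 4 runs mostly, but not for every gene, from high in short to low in long transcripts.

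The gap between members with shorter and longer transcripts was widest in CDF_F replicate 4 and CD_M replicate 4. In CDF_F replicate 4 the 16 members with shorter transcripts (1247 to 2245 nt) had a median deviation of 0.56 and 13 of them were above their median, while the 16 longer ones (2339 to 10394 nt) had a median of -0.76 and 4 above. Sptb, the longest, was 2.77 below its median there, and Trim58, Ank1, Zfpm1, Epb41, Ermap, Slc4a1, Slc25a37 and Tal1 also had their lowest value of the 38 libraries in it. Nfe2, Alad, Urod, Fech and Slc25a38 had their highest value in the same library. Against the order by length, Trim58 is one of the shorter members and Fech one of the longer. In CD_M replicate 4 the medians of the shorter and longer members were 0.45 and -0.29. Smaller gaps stood in further libraries and ran both ways: the medians of shorter and longer members were 0.22 and -0.22 in WD_F replicate 4, but -0.13 and 0.18 in CDF_M replicate 2, -0.11 and 0.19 in WD_M replicate 4 and -0.12 and 0.23 in WDF_F replicate 1. In WDF_F replicate 2 both were above 0, at 0.34 and 0.56, as in WDF_M replicate 5, at 0.31 and 0.38.

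**Figure D2:**
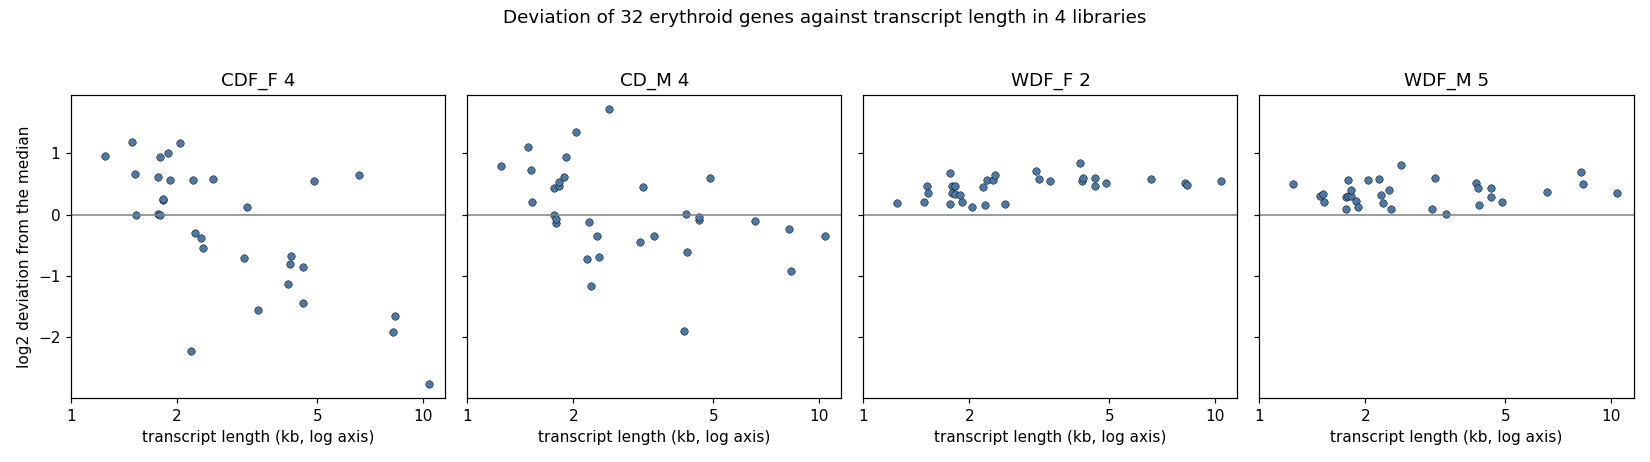
Log2 deviation from the median over 38 libraries (vertical axis) against transcript length in kilobases (horizontal log axis) for 32 genes in 4 libraries. Most points fall from left to right in CDF_F 4, where Sptb lies at -2.77. Trim58 (-2.22), a shorter gene, and Fech (0.65), a longer one, lie off that fall. In WDF_F 2 and WDF_M 5 the points stay above 0 at all lengths.

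Under 45% fat all members stood higher on average, and none passed the test. Averaged over the 4 pairs of groups that differ in fat alone, all 32 were higher under 45% than under 10% fat, where 49.8% of all tested genes were higher. Their median log2 difference was 0.21, against -0.000464 over all genes. By library, the members' median deviation was above 0 in 12 of 20 libraries at 45% fat and in 6 of 18 at 10% fat. Its ranges overlapped, from -0.24 to 0.51 and from -0.41 to 0.26. Because members stood high or low together in a library, the 32 members are not independent of one another. None passed the test, however: 0 of 32 had an adjusted p under 0.05 (limma, Benjamini-Hochberg over 15377 genes), the smallest being 0.285 for Slc4a1, and 0.0455% of all genes passed. At an unadjusted p under 0.05, 15 of 32 members were higher and none lower, against 3.25% of all genes higher. This count was 8 without WDF_M replicate 5, WD_F replicate 5 or WDF_F replicate 2, each left out singly. With CD_F replicate 5 and CDF_F replicate 4 both left out it was 11, and all 32 were still higher. The 7 genes that passed among all genes, none of them a member, were all lower under 45% fat: Pltp, Dram1, Abcg8, Acss2, Lysmd2, Me1 and Epcam.

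Membrane and skeleton genes had the smallest p-values of the members. Band 3, encoded by Slc4a1 (chr11:102348824-102366203 in mm10), exchanges chloride for bicarbonate and anchors the skeleton. It had values of 23974, 24083, 25729, 24665 and 20750.2 in CD_M, 18687, 29573, 28970.4, 25854 and 34068 in CDF_M, 25129, 32968, 35885, 34924 and 28877 in WD_M and 24823, 23498, 23864, 23134 and 35376 in WDF_M. Female livers had 26794, 22315, 22579.8 and 14824 in CD_F, 24857, 27668, 26945 and 14605 in CDF_F, 23634, 30492, 30134, 21874 and 32194 in WD_F and 31634, 39957, 30746, 31668 and 28456 in WDF_F. Only WDF_F lay wholly above its 10% fat counterpart, CDF_F, while WD_M lay above CD_M but for its lowest library. The mean log2 difference over the 4 pairs was 0.30 ± 0.09 (standard error), or 1.23-fold, with an unadjusted p of 0.00211 and an adjusted p of 0.285 by limma. Without CDF_F replicate 4 the difference was 0.25.

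Rhag, which carries the Rh proteins in the membrane, had values of 2564, 2836, 2818, 2218 and 2211 in CD_M and 3048, 3633, 3465, 2875 and 2877 in WD_M, groups that did not overlap. In CDF_M it had 2326, 3270.3, 2793, 2473 and 3291 and in WDF_M 2896, 2242, 2357, 2538 and 3727, which overlapped widely. In females the values were 2812, 2465, 2616 and 2107 in CD_F, 2613, 3054, 2942, 2513 and 3254 in WD_F, 2548, 2538, 2621 and 2162 in CDF_F and 3038, 4178, 2854, 2971 and 3116 in WDF_F. CDF_F and WDF_F did not overlap, also without CDF_F replicate 4. Over the 4 pairs the log2 difference was 0.22 ± 0.07, with an adjusted p of 0.319 by limma. The other membrane proteins, the Rh blood group gene Rhd, Kel and the erythroid membrane-associated protein Ermap, differed by 0.20, 0.34 and 0.21; Ermap was at 0.12 without CDF_F replicate 4.

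**Figure D3:**
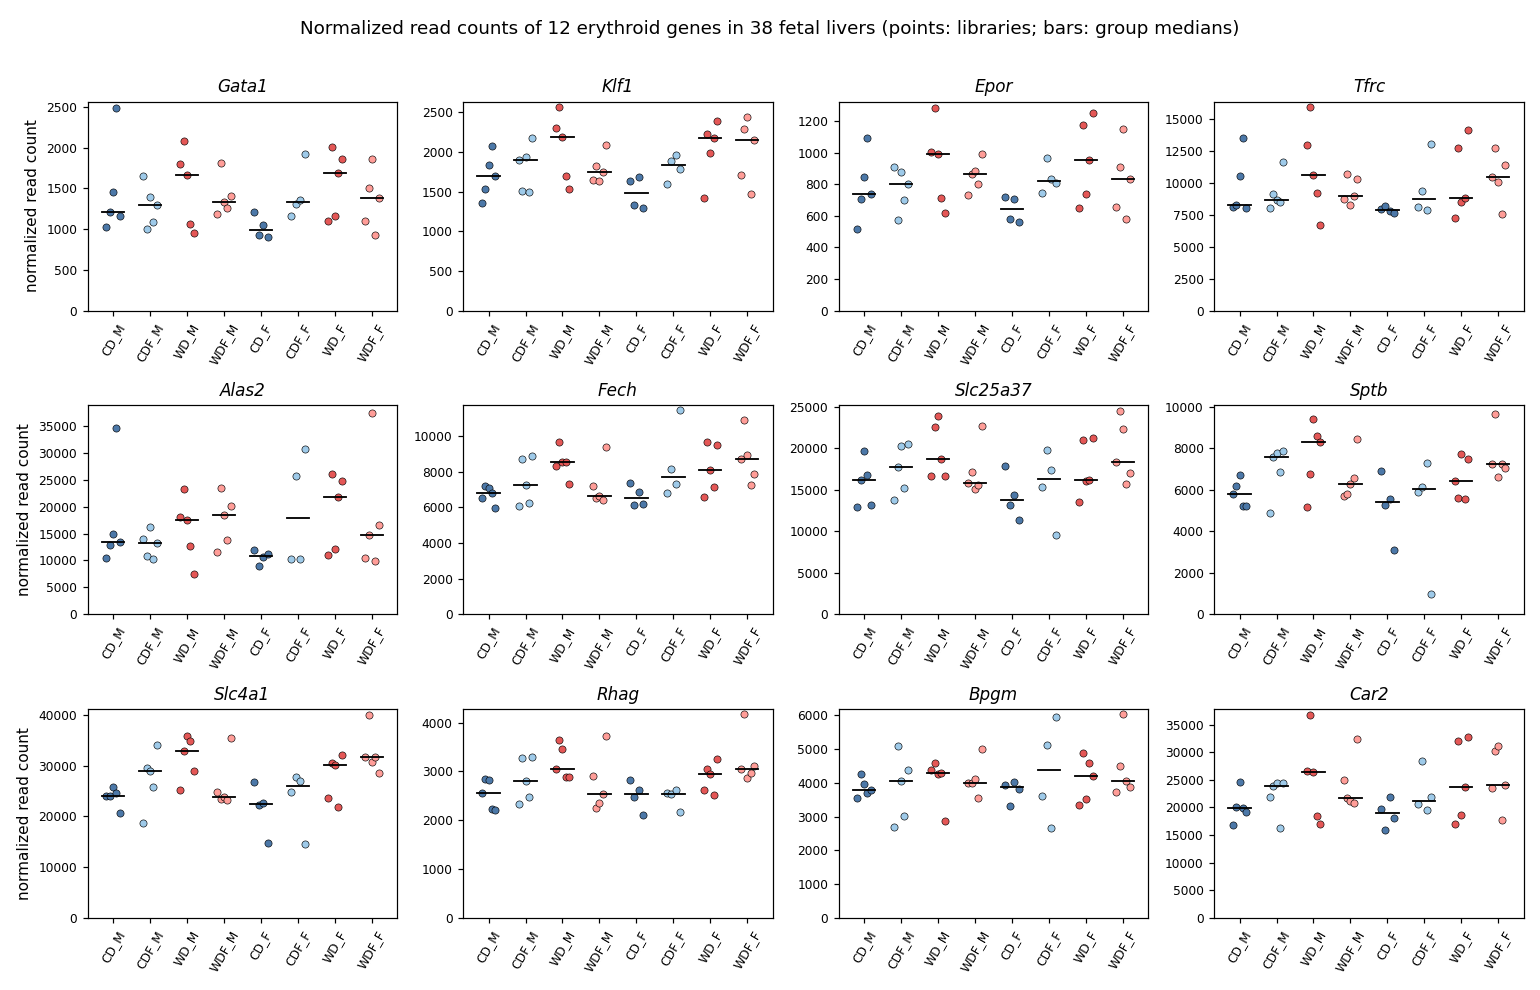
Normalized read counts (vertical axes, from 0) of 12 of the genes in 38 fetal livers by group; each point is a library and each bar a group median. WDF_F lies above CDF_F for Slc4a1 and Rhag, and the groups overlap in most other panels.

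The 5 membrane skeleton genes had a median difference of 0.32. Its mesh of spectrin is tied to band 3 by ankyrin, encoded by Ank1, and by protein 4.2, encoded by Epb42, and tropomodulin (Tmod1) caps its actin filaments. Beta-spectrin, Sptb, had values of 5800.3, 6158, 6705, 5192 and 5217 in CD_M, 4852, 7555, 7781, 6833 and 7883 in CDF_M, 5166, 6743, 9385, 8597 and 8293 in WD_M and 5693, 5796, 6265, 6558 and 8431 in WDF_M. The female values of Sptb were 6904, 5261, 5549 and 3068 in CD_F, 5889, 6127, 7302 and 966 in CDF_F, 6423, 5588, 7734, 5532 and 7484 in WD_F and 7251, 9636, 6609, 7249 and 7025 in WDF_F. Its lowest value stood in CDF_F replicate 4, and the log2 difference of 0.39 ± 0.16 became 0.22 without that library. Ank1 differed by 0.38 ± 0.13 and without it by 0.27, and Epb41, which joins spectrin to actin, by 0.27 and 0.16. Tmod1 differed by 0.32 ± 0.11 (adjusted p 0.340 by limma). Epb42 had values of 1914, 1967, 2020.1, 589 and 1802 in CD_M, 1359.9, 2759, 2135, 1821 and 3247 in CDF_M, 2338, 3136, 2633, 2540.3 and 2027 in WD_M and 2639, 1215, 1757, 1803 and 3162 in WDF_M. For females they were 2231, 2179.8, 2289.7 and 1589 in CD_F, 2489, 2428, 1852 and 1006 in CDF_F, 1862, 2613, 2342, 1419 and 2733 in WD_F and 3343, 3947, 1837, 2279.6 and 2334 in WDF_F. CD_M and WD_M did not overlap, and the value of CD_M replicate 4 was less than those of all other libraries; the mean difference over the 4 pairs was 0.30 ± 0.15.

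Among the regulators, all 6 transcription factors and both receptors were higher under 45% fat, by 0.05 for Nfe2 to 0.22 for Epor. The value of Nfe2 moved by over 1.5 times with any of 12 libraries left out, between 0.02 without CDF_F replicate 1 and 0.12 without CDF_F replicate 4, and that of the cofactor gene Zfpm1 went from 0.21 to 0.12 without CDF_F replicate 4. GATA1, the master regulator of the lineage, had values of 1027, 1205, 1457, 2488 and 1158 in CD_M, 1657, 1002, 1391, 1093 and 1298 in CDF_M, 1794, 2087, 1669, 1067 and 953 in WD_M and 1184, 1807, 1332, 1266 and 1411 in WDF_M. In CD_F it had 1207, 930.3, 1051 and 899, in CDF_F 1156, 1304, 1359 and 1919, in WD_F 1103, 2012, 1159, 1686 and 1867 and in WDF_F 1104, 1509, 1864, 927 and 1377. All fat pairs overlapped and the mean log2 difference was 0.17 ± 0.12. KLF1, which activates adult globin and membrane genes, had values of 1355, 1528, 1832, 2078 and 1693 in CD_M, 1904, 1505, 1940.2, 1499 and 2174 in CDF_M, 2298, 2573, 2193, 1694 and 1527 in WD_M and 1642, 1819, 1639, 1749.8 and 2084 in WDF_M. Klf1 in females had 1640.0, 1331, 1680.1 and 1295 in CD_F, 1590.2, 1891, 1967 and 1785 in CDF_F, 1422, 2222, 1984, 2175 and 2391 in WD_F and 1716, 2289.8, 2438, 1473 and 2148 in WDF_F. WD_F exceeded CD_F in 4 of its 5 libraries, and the mean difference over the 4 pairs was 0.21 ± 0.08 (adjusted p 0.509 by limma). Tal1, a factor that binds DNA together with GATA1, differed by 0.20 ± 0.08 and Gfi1b by 0.16 ± 0.08.

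The erythropoietin receptor gene Epor had values of 517, 707, 847, 1093 and 738 in CD_M, 909, 575, 880.2, 702 and 802 in CDF_M, 1005, 1285, 991, 713 and 619 in WD_M and 732, 866, 882, 801 and 988 in WDF_M. In females they were 719, 577, 708 and 559.8 in CD_F, 742, 967, 834 and 809.7 in CDF_F, 652, 1174, 735, 954 and 1249 in WD_F and 654, 908, 1149, 582 and 832 in WDF_F. CD_F had the lowest median and lay wholly below CDF_F; the fat difference was 0.22 ± 0.10. The transferrin receptor gene Tfrc, which brings iron into the cell, had 8127, 8269, 10494, 13476 and 8028 in CD_M, 8035, 9139, 8609, 8454 and 11627 in CDF_M, 12945, 15868, 10606, 9194 and 6704 in WD_M and 8686, 10702, 8255, 8911 and 10257 in WDF_M. Its female values were 7919, 8155, 7811 and 7588 in CD_F, 8087, 9369, 7874 and 12979 in CDF_F, 7244, 12726, 8485, 8806 and 14109 in WD_F and 10457, 12673, 10076, 7535 and 11341 in WDF_F. The CD_F libraries lay close together and all fat pairs overlapped, with a mean difference of 0.17 ± 0.10.

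All 7 heme enzymes were higher under 45% fat, with a median log2 difference of 0.19. Alas2, the rate-limiting step of heme synthesis in red cells, had values of 10498, 12872, 14911, 34706 and 13459.9 in CD_M, 13916, 10836, 16150.2, 10349 and 13218 in CDF_M, 18141, 23348, 17464, 12753 and 7467 in WD_M and 11599, 23593, 18490.0, 13833 and 20099 in WDF_M. Alas2 in females had 12038, 8997, 10609 and 11236 in CD_F, 10236, 25703, 10211 and 30708 in CDF_F, 11054, 26063, 12067, 21801 and 24768 in WD_F and 10550.1, 14812, 37435, 9870.2 and 16577 in WDF_F. Single libraries were far above the rest of their group, CD_M replicate 4 and WDF_F replicate 3 among them, and the difference of 0.24 ± 0.18 was close to its error in size. Fech, which inserts iron into the ring, was steadier, with 6528, 7214, 7114, 6827 and 5977 in CD_M, 6089, 8727, 7279, 6267 and 8902 in CDF_M, 8312, 9699, 8554, 8579 and 7324 in WD_M and 7212, 6542, 6638, 6439 and 9387 in WDF_M. In females it had 7368, 6129.8, 6866 and 6172 in CD_F, 6811, 8146, 7329 and 11478 in CDF_F, 6568, 9697, 8096, 7176 and 9501 in WD_F and 8742, 10935, 8949, 7247 and 7902 in WDF_F. WD_M lay wholly above CD_M, and the mean difference over the 4 pairs was 0.16 ± 0.07. The other enzymes differed by 0.24 (Alad), 0.17 (Uros), 0.19 (Urod), 0.21 (Cpox) and 0.17 (Ppox).

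Slc25a37, which imports iron into mitochondria, had 12974, 16222, 19641, 16741 and 13123 in CD_M, 13782, 17722, 20332, 15255 and 20559.5 in CDF_M, 16663, 22614, 23848, 18768 and 16698 in WD_M and 15792, 17128, 15133, 15566 and 22704 in WDF_M. In females it had 17898, 13109, 14365 and 11355 in CD_F, 15319, 19832, 17386 and 9553 in CDF_F, 13547, 21006, 16009, 16213 and 21286 in WD_F and 18357, 24464, 22294, 15695 and 16985 in WDF_F. All pairs overlapped, and the fat difference was 0.24 ± 0.09 for it and 0.13 ± 0.10 for the glycine carrier gene Slc25a38. Car2 had 16832, 20028, 24543, 19873 and 19234 in CD_M, 21831, 23876, 24440.5, 16203 and 24529.9 in CDF_M, 26598, 36861, 26510.1, 18434 and 17010.4 in WD_M and 25042, 21640.0, 21166, 20741 and 32405 in WDF_M. In females Car2 had 19785, 15902, 21886 and 18099 in CD_F, 20592, 28516, 19503 and 21872 in CDF_F, 16994, 32019, 18614, 23656 and 32860.4 in WD_F and 23553, 30223, 31201, 17808 and 24147 in WDF_F. The fat pairs overlapped, with a mean difference of 0.22 ± 0.10. Bisphosphoglycerate mutase, encoded by Bpgm, makes the metabolite that lowers the oxygen affinity of hemoglobin. It had 3540.0, 4257, 3969.8, 3698 and 3798 in CD_M, 2704, 5082, 4052, 3003 and 4384 in CDF_M, 4381, 4587, 4269, 4281 and 2866 in WD_M and 3987, 4007, 4108, 3560.0 and 5000.0 in WDF_M. Bpgm in females had 3948, 3327, 4019 and 3820.3 in CD_F, 3616, 5131, 2646 and 5942 in CDF_F, 3350.0, 4879, 3526, 4585 and 4209.7 in WD_F and 3716, 4493, 6027, 4058 and 3868 in WDF_F. Its groups overlapped in all fat pairs. With a difference of 0.10 ± 0.09 (0.04 without CDF_F replicate 3) it was, next to Nfe2, the member that differed least. Trim58, at the low end of the range, had 142, 153, 160.2, 88.7 and 115 in CD_M, 67.9, 222, 188, 160.0 and 218 in CDF_M, 127, 122, 178, 255 and 222 in WD_M and 191, 76.1, 118, 158 and 221 in WDF_M. Trim58 in females had 171, 133, 115 and 78.8 in CD_F, 158, 106, 158 and 30.8 in CDF_F, 135, 126, 162, 99.0 and 115 in WD_F and 197, 203, 126, 222 and 126 in WDF_F. Its groups overlapped in all fat pairs and the difference was 0.29 ± 0.18, or 0.16 without CDF_F replicate 4.

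**Figure D4:**
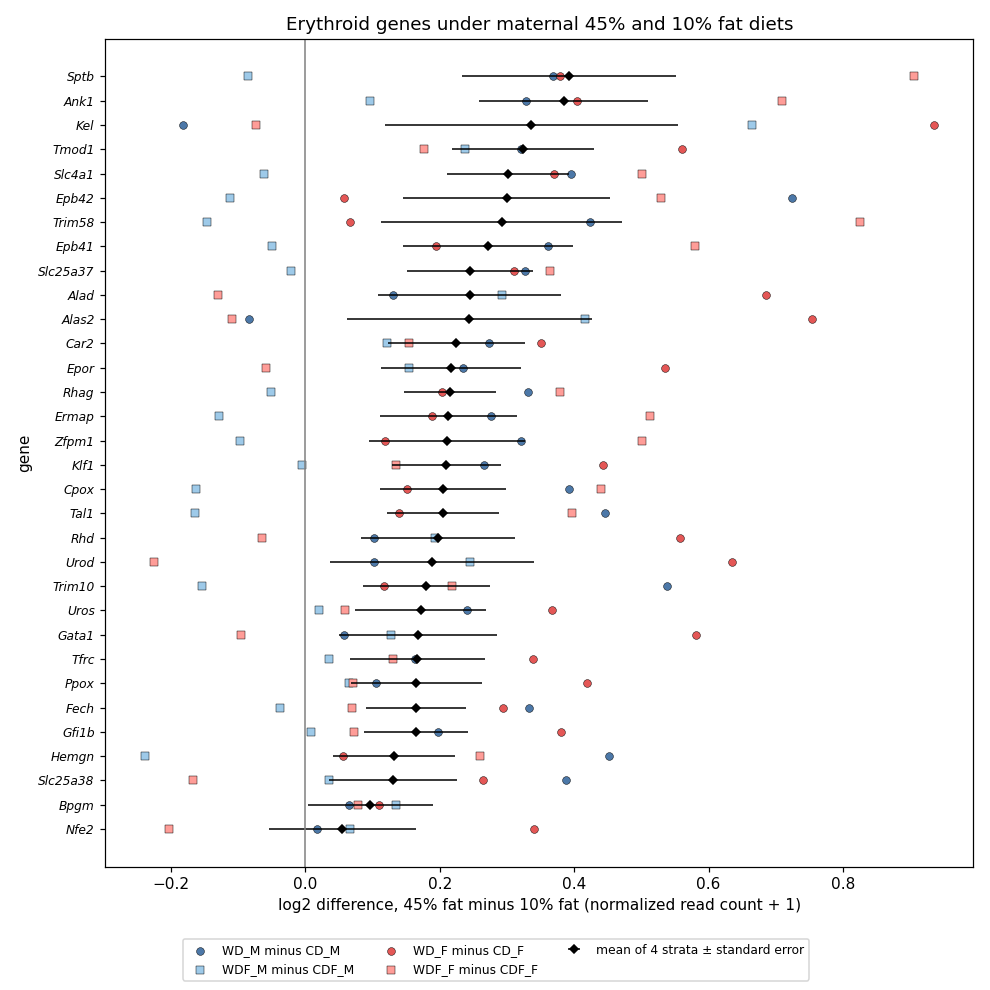
Log2 difference of each of 32 genes between 45% and 10% fat (horizontal axis) in 4 pairs of groups (circles: 2 mg/kg, squares: 10 mg/kg folic acid; blue: males, red: females) and as the mean of the 4 (black diamonds with standard error). All diamonds lie right of 0, between 0.05 and 0.39, while the WDF_M minus CDF_M squares scatter around 0.

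The 4 pairs behind this mean did not contribute evenly in their medians. In males at 2 mg/kg folic acid (WD_M against CD_M) 30 of 32 members were higher (all genes: 47.7%), with a median of 0.30, and 9 had an unadjusted p under 0.05, all higher (all genes: 3.35% higher). The 9 became 3 without WD_M replicate 2, with 24 of 32 higher, and 4 without CD_M replicate 5. Tal1, Rhag, Epb42, Fech and Cpox had groups that did not overlap, 5 of 32 against 0.826% of all genes. Tal1 had 2224, 2291, 2582, 1646 and 2303 in CD_M and 2987, 3150.2, 2988, 2915 and 2852 in WD_M, a log2 difference of 0.45 ± 0.16. The ubiquitin ligase gene Trim10, whose groups overlapped, had the smallest p with a difference of 0.54 ± 0.18 (0.34 without CD_M replicate 4), followed by Tal1 and by Hemgn, a nuclear regulator of blood cells, with 0.45 ± 0.18. No member passed adjustment (smallest adjusted p 0.673 by limma; 0% of all genes passed). In males at 10 mg/kg (WDF_M against CDF_M) 17 of 32 were higher (all genes: 50.9%), the median was 0.01 (from -0.0544 without WDF_M replicate 5 to 0.0737 without CDF_M replicate 5), and none had an unadjusted p under 0.05 (all genes: 6.9% in either direction). The 3 with the smallest p there were Kel (0.66), Hemgn (-0.24, or -0.14 without WDF_M replicate 3) and Alas2 (0.42), with adjusted p from 0.729 to 0.756 by limma.

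In females at 2 mg/kg (WD_F against CD_F) all 32 were higher (all genes: 47.8%), with a median of 0.34. An unadjusted p under 0.05 was found for 10, all higher (all genes: 3.06% higher). Klf1 (0.44 ± 0.17), Tmod1 (0.56 ± 0.22) and Epor (0.54 ± 0.21) had the smallest p, and Alad, Gata1, Rhd, Gfi1b, Ppox, Kel and Urod followed. The groups overlapped for each member and none passed adjustment (smallest adjusted p 0.662 by limma; 0% of all genes passed). The members with shorter transcripts had a median of 0.40 and those with longer ones of 0.25 in this pair, an order that turned to 0.30 and 0.39 after a correction for transcript length and GC content. CD_F had 4 libraries. The 10 became 2 without CD_F replicate 2, 5 without CD_F replicate 5, 2 without WD_F replicate 2, 1 without WD_F replicate 5 and 16 without WD_F replicate 1. Without CD_F replicate 5 and CDF_F replicate 4, 27 of 32 members were higher, 5 had an unadjusted p under 0.05 and the median was 0.29.

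In females at 10 mg/kg (WDF_F against CDF_F) 23 of 32 were higher (all genes: 50.8%), with a median of 0.14, and 10 had an unadjusted p under 0.05 (all genes: 4.23% higher). These were Sptb (0.91 ± 0.33), Ank1 (0.71 ± 0.26), Rhag, Slc4a1, Ermap, Tal1, Cpox, Epb41, Trim58 and Zfpm1. Of these, Rhag and Slc4a1 had groups that did not overlap, 2 of 32 against 0.247% of all genes. The 16 longer members had a median of 0.42 and the 16 shorter ones of 0.0001, or 0.33 and 0.16 after the correction for length and GC content, which raised the median of all members to 0.25 with 27 of 32 higher. That median was 0.0783 without CDF_F replicate 1, 0.0788 without WDF_F replicate 2, 0.0762 without WDF_F replicate 3 and 0.25 without WDF_F replicate 4, all before correction. Without CDF_F replicate 4, 31 of 32 were higher, the median was 0.15, and Rhag alone, at 0.32, had an unadjusted p under 0.05; the count was 3 without WDF_F replicate 2 and 6 without WDF_F replicate 1. With CDF_F replicate 4 left out Sptb was at 0.22 and Ank1 at 0.23. None passed adjustment with or without that library (smallest adjusted p with it 0.532 by limma; 0% of all genes passed). Over the 4 pairs together, 8 members were higher in 4, 22 in 3 and 2 in 2.

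Other genes of the lineage, taken from lists, were also mostly higher under 45% fat, and none of them passed adjustment by limma. Of 19 further red cell membrane genes all 19 were higher (median 0.22), led by Gypc by 0.26 and Add2 by 0.21, which encode glycophorin C and beta-adducin. Of 18 further heme and iron genes 16 were higher (median 0.12), led by Abcb10 by 0.25 and Eif2ak1 by 0.17, a mitochondrial transporter and the heme-regulated kinase gene. Of 17 further erythroid transcription factors and cofactors 14 were higher, with Lmo2 by 0.21 and E2f2 by 0.20 first. Of 13 genes of erythropoietin and Kit signalling 10 were higher, with Pim1 by 0.31 and Erfe by 0.56 first; Erfe encodes erythroferrone, a hormone of erythroblasts that acts on iron supply. All 14 late erythroblast genes were higher, with Ube2o by 0.25 and Tent5c by 0.17 first. Of 7 globins 6 were higher, with Hbb-y by 0.31 and Hba-x by 0.24 first.

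Genes of cell division and markers of other cells also leaned with maternal fat. All 20 cell cycle genes were higher under 45% fat (median 0.15). An unadjusted p under 0.05 by limma was found for 7, against 3.25% of all genes higher. The cell cycle genes were led by Top2a by 0.26 and Cdc6 by 0.25. Their sum ran over 33845 to 44969 in CD_M, 40428 to 49388 in CDF_M, 44022 to 60623 in WD_M, 39974 to 52009 in WDF_M, 30331 to 44242 in CD_F, 31656 to 46052 in CDF_F, 38882 to 54401 in WD_F and 39387 to 57462 in WDF_F. All 7 mesothelial markers, which mark the sheet covering the organ, were lower (median -0.59). Of these, 6 had an unadjusted p under 0.05 by limma, against 1153 of all 15377 genes in either direction. The mesothelial markers were led by Upk3b by -0.61 and Msln by -0.70. Their sum ran over 1016 to 2679 in CD_M, 577 to 939 in CDF_M, 455 to 959 in WD_M, 268 to 1519 in WDF_M, 880.1 to 3542 in CD_F, 776 to 2963 in CDF_F, 361 to 1307 in WD_F and 501 to 1057 in WDF_F. None of the 7 was at 0 throughout a group. Of 14 hepatocyte markers 7 were higher, with a median of 0.00390. Megakaryocyte markers were higher in 12 of 12 (median 0.19), macrophage markers in 9 of 12 (0.06), neutrophil markers in 2 of 10 (-0.06) and B cell precursor markers in 2 of 9 (-0.07). None of these list genes passed adjustment in the fat comparison by limma, and the part of these cells in the members' differences was not tested. Lung markers were lower in 9 of 9 and heart markers in 6 of 6 (medians -0.98 and -0.51), while skeletal muscle markers were higher in 1 of 6. Summed lung markers ran over 30.8 to 5719 in CD_M, 25.4 to 36.5 in CDF_M, 15.4 to 57.0 in WD_M, 27.6 to 8501 in WDF_M, 20.7 to 39717 in CD_F, 21.4 to 29128 in CDF_F, 29.5 to 2837 in WD_F and 24.5 to 226 in WDF_F. Nkx2-1 and Scgb1a1, defining genes of lung, were at 0 in all libraries of CDF_M. Their part was not tested either.

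Between the folic acid doses no member passed either, and the direction of the members differed from pair to pair. Over the 4 pairs of groups 28 of 32 were higher at 10 than at 2 mg/kg (all genes: 49.5%), but the median was 0.05 and the smallest unadjusted p was 0.302, for Fech; the adjusted p was 1.00 by limma and 0% of all genes passed, with 2.33% at an unadjusted p under 0.05. Fech (0.08 ± 0.07), Car2 (0.11 ± 0.10) and Gfi1b (0.07 ± 0.08) had the smallest p; Fech was at 0.0380 without CDF_F replicate 4 and Gfi1b at 0.0485 without WDF_M replicate 5. The members' median ran from 0.0271 without CD_F replicate 5 to 0.0698 without CD_F replicate 1.

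In males under 45% fat most members were lower at the higher dose. In WDF_M against WD_M 28 of 32 were lower (all genes: 51.4% higher), with a median of -0.18; without WD_M replicate 2 it was -0.0942, with 19 of 32 lower. None passed adjustment (smallest adjusted p 0.510 by limma; 0% of all genes passed). Hemgn had 4798, 5516, 5167, 4762 and 4510.5 in WD_M and 4435, 3229, 2781, 3665 and 4474 in WDF_M, so that all 5 libraries of WDF_M lay below all 5 of WD_M. Its log2 difference was -0.43 ± 0.18, with an unadjusted p of 0.0187 in the limma model. Tal1 had 2987, 3150.2, 2988, 2915 and 2852 in WD_M and 2714, 1995, 2028, 2371 and 2825 in WDF_M, again without overlap, and a difference of -0.33 ± 0.16 with an unadjusted p of 0.0472 in the limma model. These were 2 of 32 members at an unadjusted p under 0.05 (all genes: 8.81% in either direction) and 2 of 32 without overlap (all genes: 1.18% lower). The first count was 0 without WDF_M replicate 3, 6 without WDF_M replicate 5, and 1 without any single one of WD_M replicates 1, 2, 3 and 4 and WDF_M replicates 2 and 4. Trim10, next in order, differed by -0.32 ± 0.18 and its groups overlapped. Kel, at 0.52 (0.24 without WD_M replicate 5 and 0.80 without WD_M replicate 2), was the member that stood furthest in the other direction. This pair shares WD_M with the male fat comparison, in which Hemgn and Tal1 were higher in WD_M by 0.45 and 0.45.

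**Figure D5:**
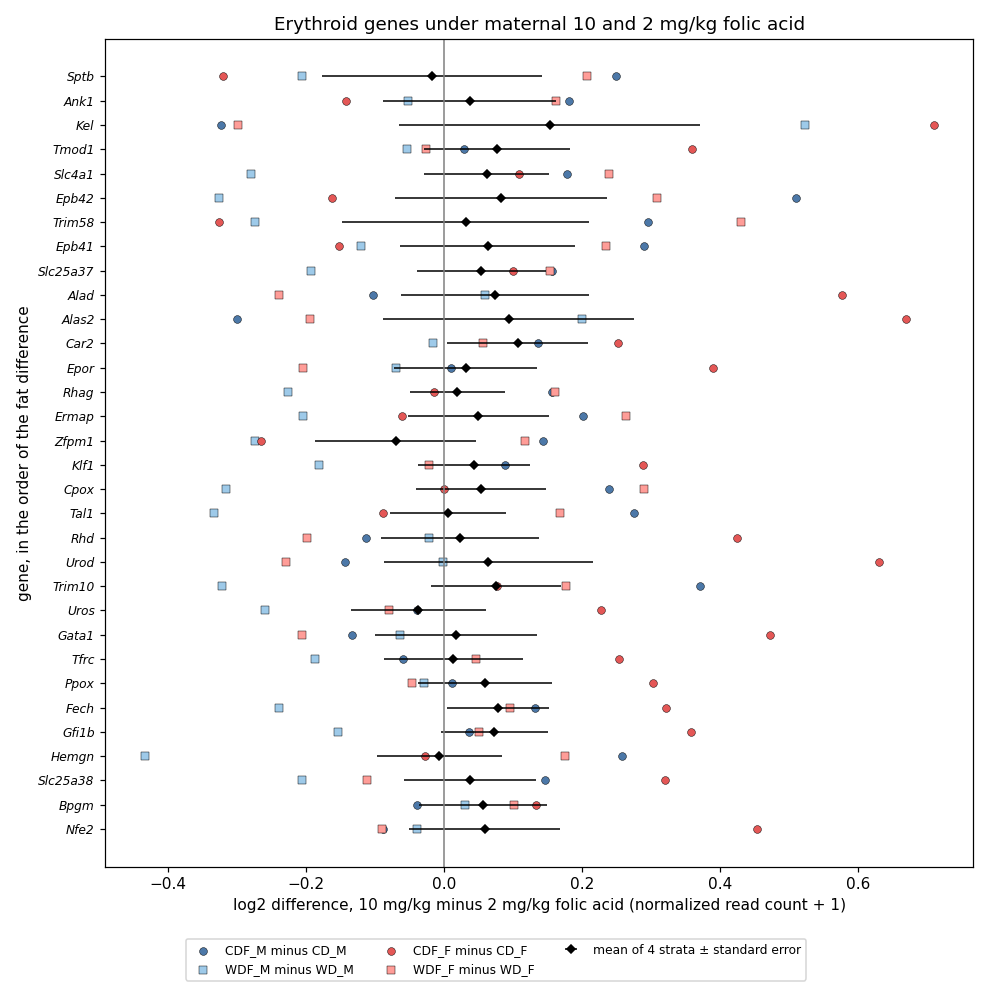
Log2 difference of each of 32 genes between 10 and 2 mg/kg folic acid (horizontal axis) in 4 pairs of groups (circles: 10% fat, squares: 45% fat; blue: males, red: females) and as the mean of the 4 (black diamonds with standard error). The WDF_M minus WD_M squares lie left of 0 for 28 genes, and the diamonds stay between -0.07 and 0.15.

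In the other 3 pairs more members were higher than lower at the higher dose. In CDF_M against CD_M 22 of 32 were higher (all genes: 49.1%) with a median of 0.13 (0.0573 without CDF_M replicate 5 and 0.0820 without CD_M replicate 1), none at an unadjusted p under 0.05 (all genes: 3.49%), and 3 without CDF_M replicate 1. Trim10 (0.37 ± 0.18), Epb42 (0.51 ± 0.30) and Tal1 (0.28 ± 0.16) came first, with an adjusted p of 0.908 by limma for each. Without CD_M replicate 4 Trim10 was at 0.17, Epb42 at 0.17 and Tal1 also more than 1.5 times lower, and Tal1 was at 0.16 without CDF_M replicate 5. In CDF_F against CD_F 22 of 32 were higher (all genes: 46.9%) with a median of 0.24. This median was 0.26 with 31 of 32 higher without CDF_F replicate 4, and 0.15 with 27 higher without CD_F replicate 5 as well. It was 0.14 with 26 higher after the correction for length and GC content and 0.12 with library weights. By limma-voom it was 0.00042 with 16 higher. That variant of the model scales each library to its total and weights values by their level. Gfi1b alone had an unadjusted p under 0.05 (all genes: 7.78%), with 0.36 ± 0.17, and Fech (0.32 ± 0.16, or 0.16 without CDF_F replicate 4) and Alad (0.58 ± 0.30, or 0.33) followed, all with an adjusted p of 0.507 by limma. This count of 1 ran from 0 to 8 with a library left out, 0 without CD_F replicates 2, 3 or 5 or CDF_F replicates 2 or 4, 2 without CD_F replicate 1, 6 without CDF_F replicate 3 and 8 without CDF_F replicate 1. Epor was the 1 member whose groups did not overlap (all genes: 1.42% higher). In WDF_F against WD_F 19 of 32 were higher (all genes: 50.8%) with a median of 0.08, which ran from -0.00813 without WDF_F replicate 2 to 0.16 without WD_F replicate 5, and none had an unadjusted p under 0.05 (all genes: 1.44%). Cpox (0.29 ± 0.18), Slc4a1 (0.24 ± 0.18) and Ermap (0.26 ± 0.20) came first there, with an adjusted p of 0.948 by limma; Cpox was at 0.17 without WDF_F replicate 2 and also moved by over 1.5 times without WD_F replicate 4, where Slc4a1 was at 0.16.

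Tests of whether one diet factor's effect depended on the other, or on sex, found no member past the threshold (0 of 32 and 0% of all genes in each of the 3 tests, limma). The folic acid effect was lower at 45% than at 10% fat in 28 of 32 members (all genes: 51.4% higher), with a median of -0.18. Slc25a38 alone had an unadjusted p under 0.05 (all genes: 4.66%), at -0.39 ± 0.19, and Fech (-0.30 ± 0.15) and Klf1 (-0.29 ± 0.16) followed, with an adjusted p of 0.968 by limma. That count of 1 ran from 0 to 3 with a library left out. Without CDF_F replicate 4 it was lower in 31 of 32, with a median of -0.21 and none at an unadjusted p under 0.05. The fat effect was larger in females in 28 of 32 members (all genes: 50.2%; median 0.13), none at an unadjusted p under 0.05 (all genes: 1.18%), with Sptb (0.50 ± 0.32), Slc4a1 (0.27 ± 0.18) and Ank1 (0.34 ± 0.25) first. Without CDF_F replicate 4 these were 0.16, 0.16 and 0.11. The members' median was 0.0778 without CDF_F replicate 4 and CD_F replicate 5 together, 0.0508 without WD_M replicate 5, 0.0765 without CD_M replicate 4 and 0.0791 without WD_F replicate 5. The folic acid effect was larger in females in 27 of 32 (all genes: 48.5%; median 0.14), none at an unadjusted p under 0.05 (all genes: 1.07%), with Fech (0.26 ± 0.15), Gfi1b (0.26 ± 0.16) and Tfrc (0.27 ± 0.20) first. These contrasts reuse the groups compared above.

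No member passed between male and female livers. In the mean over the 4 diets 12 of 32 were higher in females (all genes: 51.8%), the median was -0.02 (from -0.0423 to 0.00701 with 1 library left out), and none passed (all genes: 0.0585%) or had an unadjusted p under 0.05 (all genes: 3.1%). Zfpm1 (-0.19 ± 0.12), Sptb (-0.25 ± 0.16) and Trim58 (-0.26 ± 0.18) had the smallest p, with an adjusted p of 0.999 by limma. Without CDF_F replicate 4 they were at -0.0998, -0.0778 and -0.13.

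The authors' deposited tables hold 4 comparisons of high against low folic acid. In them no member had an adjusted p under 0.05 either. In the authors' deposited table for western diet males 28 of 32 members had a negative log2 fold change, with a range of -0.287 to 0.0390; 203 genes (1.48%) passed there, and Hemgn came closest with a log2 fold change of -0.287 and an adjusted p of 0.153. In the authors' deposited table for control diet females 24 of 32 were positive and the largest value was 0.0332, and 0.0216% of genes passed. The authors' deposited tables for control diet males and western diet females had 16 and 15 positive members and 0.0437% and 0% of genes passing. Members ran only from -0.000588 to 6.22e-05 in control diet males and from -0.0019 to 0.000129 in western diet females. Gata1 had a standard error of 0.00144 in both, so the signs counted there say little about direction. The members' fold changes in the authors' deposited tables lie closer to 0 than the log2 differences above. How the authors estimated them was not examined here, so the 2 sets of values are unlike measures. Whether their control diet female comparison held CD_F replicate 4 and CDF_F replicate 5, left out above, is not known either.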

How the data were processed

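Polyadenylated RNA of 40 fetal livers was read as directional paired ends of 43 nt, per the labels' protocols. The submitters' processing notes name mm10 and the tools DESeq2 1.24, Salmon 1.3.0, STAR 2.7.3a and Trimmomatic 0.39 without order or role, and how reads were counted is not stated. The authors deposited a signal scale of normalized read counts: values were not whole, low values shared no common step, and size factors computed again by median ratios came out equal in all 40 libraries, so depth in reads is unknown and a count test was not used, although a quasi-likelihood count test had been planned for whole counts. The authors' deposited tables give log2 fold changes, p-values and adjusted p-values, copied here as they stand.

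One column, that of CDF_F replicate 1, was named without sex and was assigned because its name fits no other title. Group means were fitted to log2(value + 1) with limma 3.58.1 (trend, robust) in R 4.3.3 over 38 libraries and genes with at least 10 in at least 5 libraries, and 14 comparisons were tested with Benjamini-Hochberg adjustment at 0.05 over all genes. The fit was tested on simulated data with known changes in the mean fat comparison. It recovered 30 of 67 genes changed by 0.3 on the log2 scale, 54 of 67 changed by 0.585 and 64 of 66 changed by 1. Of its 154 calls 6 were false. A difference of 0.3 can therefore be missed by the test. The simulated noise was drawn for each gene alone, and 154 calls set a looser cutoff than the 7 of the real comparison. The shares recovered need not hold for the members, which moved together. Positions and lengths are those of GENCODE M21 on mm10, promoters those of RefSeq on GRCm38.p6. The length of a gene is that of its longest protein-coding transcript, or of its longest transcript where it has none. That transcript need not be the main one in these livers, which was not examined. The members and lists were chosen with earlier results of these data known. Values of every library are given for members of each role and for members past the threshold, of which there were none, and where fewer than 3 passed, the 3 with the smallest p are named; Tal1, Hemgn and Rhag are printed by library because their groups did not overlap, chosen after their values were seen. Alternatives were all 40 or 36 libraries (also without CD_F replicate 5 and CDF_F replicate 4), each library left out, pseudocounts of 0.5 and 5, upper-quartile, trimmed-mean and median-ratio scaling, no filter and one at 50, limma-voom, library weights, the compared groups only, a replicate block and a threshold of 0.1. A correction of each library for transcript length and GC content (a spline with 5 degrees of freedom) and the fit without CDF_F replicate 4 were added after seeing the data.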

Additional observations from a re-analysis of the deposited data

Results flagged for a closer look

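Among 256 combinations of member and group, 25 held 1 library whose gap to the nearest other library was large against the range of its group (Dixon's test at 95%). About 12.8 would be flagged by chance if values were normally distributed and members independent. The values were normalized counts without log, and members stood high or low together, so the excess was not tested. The 25 flags fell on few libraries.

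CD_M replicate 4, the library with the largest GC gradient, was high for Gfi1b (734), Alas2 (34706), Alad (5802) and Urod (9087) and low for Epb41 (3405) and Epb42 (589). WDF_M replicate 5 was high for Fech (9387), Slc25a37 (22704), Ank1 (4877), Tmod1 (1605), Slc4a1 (35376) and Ermap (4872). WDF_F replicate 2 was high for Sptb (9636), Epb41 (9008), Slc4a1 (39957), Rhag (4178) and Trim10 (4348). CDF_F replicate 4 was high for Uros (1639) and Slc25a38 (1783) and low for Ermap (1464).

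Single flags stood in 5 further libraries. WDF_F replicate 3 was high for Alas2 (37435). CD_F replicate 2 was low for Nfe2 (1960.1), CD_F replicate 5 for Epb42 (1589), WD_M replicate 1 for Zfpm1 (1588) and WD_M replicate 5 for Bpgm (2866).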

How the results depend on the processing

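With other scalings, filters, pseudocounts, models and library sets, and with each library left out in turn, no member passed the threshold except with library weights. With library weights, which gave CDF_F replicate 4 the smallest weight (0.101) and WD_M replicate 3 the largest (3.26), 2 members passed in WDF_M against WD_M, Hemgn (-0.52, adjusted p 0.0379) and Trim10 (-0.48, adjusted p 0.0494), and 2 in the mean fat comparison, Alad (0.38, adjusted p 0.0326) and Tmod1 (0.39, adjusted p 0.0094). With all 40 libraries the members' median difference was 1.16 in WD_F against CD_F, 1.18 in WDF_F against CDF_F, 0.66 in the mean fat comparison, -0.48 between sexes and 1.01 for the fat effect in females minus males; the members are low in both libraries thus added. With limma-voom the median was 0.00042 in CDF_F against CD_F, 0.19 in WD_F against CD_F, 0.28 in WDF_F against CDF_F, -0.0658 in WDF_M against CDF_M, 0.13 in WDF_F against WD_F, 0.00811 in the mean folic acid comparison, 0.0464 for the folic acid effect in females minus males and -0.0981 for that effect at 45% minus 10% fat; the cause was not tested. The members' median changed sign with 1 library left out in WDF_M against CDF_M (-0.0544 to 0.0737), WDF_F against WD_F (-0.00813 to 0.16) and between sexes (-0.0423 to 0.00701). Over the other settings the median of the mean fat comparison stayed between 0.19 and 0.22 with 32 of 32 higher, and with each library left out in turn between 0.186 and 0.229. After correction for length and GC content 20 of 32 members had an unadjusted p under 0.05 in it and the smallest adjusted p was 0.128, and the median SD between libraries of a group went from 0.317 to 0.267 over the members (smaller for 25 of 32) and from 0.375 to 0.317 over all genes. The number of all genes passing in the mean fat comparison, 7, became 3 with 40 libraries, 11 with 36 or with a pseudocount of 5, 34 after the correction, 486 with library weights, 22 at a threshold of 0.1, and 3 to 53 with 1 library left out, the highest without CDF_M replicate 2. In comparisons where no gene passed with all 38 libraries, 1 passed in WD_M against CD_M after the correction and without WD_M replicate 2, and 1 in WD_F against CD_F with the compared groups only and without CD_F replicate 1 or 2. Leaving out 1 library also gave 8 in WDF_M against CDF_M (CDF_M replicate 2), 1 and 2 in WDF_M against WD_M (WD_M replicates 2 and 5), 1 in CDF_F against CD_F (CD_F replicate 1 or 2) and 1 in WDF_F against CDF_F (CDF_F replicate 1). Library weights gave 621 genes in WDF_M against WD_M, 145 in WD_M against CD_M, 241 in WDF_M against CDF_M and 2 for the folic acid effect between fat levels.

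With the replicate number as a block no member passed, the median between sexes was 0.00914, the mean fat comparison had a median of 0.22 with 32 of 32 members higher, and 2 of all genes passed in it. Same-numbered libraries of the same sex and different diets had a median correlation of their deviations of -0.009 over 54 pairs, 20 of them over 0.1. For pairs of other numbers it was -0.008 over 217 pairs, 68 of them over 0.1. A male and a female of the same diet and number were not compared, so possible littermates were not tested. Of 38 libraries 11 were closest to one of their own number, and the count to be met by chance was not computed. The numbers were not taken as pairs. No counts were at hand, and precision rests on the 4 or 5 libraries of each group.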

Other observations

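In the libraries left out, CD_F replicate 4 and CDF_F replicate 5, the members were low but present, with median deviations of -4.41 and -4.42 on the log2 scale from the other 38. Slc4a1 had 677 and 570.5, Alas2 1870.0 and 1897, and the regulators Gata1 10.3 and 11.2 and Klf1 21.1 and 12.1. Tmod1 differed between them, with 283 and 992, as did the summed heart markers, with 530 and 42081. Heart muscle also expresses tropomodulin 1. These are values of 2 single libraries and were not tested.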
